A study of Mus musculus with 8 samples.

Results

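Innate pattern recognition genes encode the receptors by which myeloid cells sense microbes, together with the adaptors that relay their signal. In this study 38 of them were examined for C/EBPα occupancy: 11 Toll-like receptors, 2 lipopolysaccharide co-receptors, 8 NOD-like receptors, 3 cytosolic nucleic acid sensors, 4 C-type lectins, 2 formyl peptide receptors, 3 scavenger receptors, and 5 adaptors with the kinase Irak4 among them. The peaks of 6 libraries were joined into regions wherever they overlapped by at least 1 bp, which gave 259446 regions. A region was assigned to a gene when it lay within 10 kb of the annotated gene body, and 378 regions lay that close to at least 1 of the 38 genes. All genes named here are mouse genes, and all coordinates are on mm10.

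C/EBPα is a basic leucine zipper transcription factor that binds DNA as a dimer and is required for the formation of granulocyte and monocyte progenitors. Toll-like receptors bind microbial products at the cell surface or in endosomes and signal through Myd88 or Ticam1 (TRIF), whereas NOD-like receptors act in the cytosol and in part assemble inflammasomes with Pycard (ASC). C-type lectins and scavenger receptors recognise microbial sugars and lipids at the cell surface and take up particles.

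C/EBPα was mapped by CUT&RUN, in which a nuclease tethered to an antibody releases the DNA beside a bound protein. The cells were lineage-negative, KIT high to intermediate, FLT3-positive progenitors sorted from mouse bone marrow. They were DC, DE or WT for the Zeb2 -165 kb enhancer. The labels give DC and DE as variants of this enhancer without further detail, and give no other allele, no treatment, no age and no sex. Each genotype had 2 libraries, numbered 1 and 2 in the library names, and this number is taken as the batch here. The labels do not say whether the 2 libraries came from separate mice, so p-values measure the spread between these libraries only. The 2 control IgG libraries from WT cells were not analysed here, so no background measured with IgG stands beside the values.

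The peak lists held 169943 and 50221 peaks in DC, 52474 and 57441 in DE, and 82080 and 56940 in WT, with batch 1 given first here and throughout. The batch 1 DC library stood apart by its number of peaks, and 106 of the 378 regions were called in that library alone. Read totals are unknown. The signal used is the summit pileup, which counts the fragments covering the summit of a peak, scaled between libraries to the regions called in all 6. A region without a call is not a region without fragments: the smallest pileup called in a library was 4 to 7. As a check of the sorted cells, Flt3 and Kit, the genes of the sorting markers, had 7 and 3 regions called in both WT libraries, and Itgam, Klrb1c, Ly6g and Cd3e, markers of mature lineages, had 5, 2, 0 and 0. Peak lists hold no expression, so this is a check of occupancy alone.

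Promoter sequences are given for 5 genes at which a region called in all 6 libraries overlapped the annotated start. In total 14 promoter windows of 12 members overlapped such a region, and in 11 of these windows all 6 summits lay inside. The windows run from 250 bases before to 50 bases after the start and come from RefSeq (GRCm38.p6, the assembly of mm10). Clec4e and Nlrc4 are shown because a relaxed form of the C/EBP palindrome TTGCGCAA lay 3 and 17 bp from the median summit. This form, called a half-site here, is TTNNGCAA or, on the other strand, TTGCNNAA. Tlr13 and Pycard hold such a half-site 118 and 185 bp from the median summit, and Pycard and Aim2 hold the PU.1 core GAGGAAGT or its reverse complement ACTTCCTC. Capitals mark these matches, and in these windows no match overlaps another. Each sequence is written 5′ to 3′ on the strand of its gene.
Clec4e promoter (chr6:123289822-123290121, minus strand): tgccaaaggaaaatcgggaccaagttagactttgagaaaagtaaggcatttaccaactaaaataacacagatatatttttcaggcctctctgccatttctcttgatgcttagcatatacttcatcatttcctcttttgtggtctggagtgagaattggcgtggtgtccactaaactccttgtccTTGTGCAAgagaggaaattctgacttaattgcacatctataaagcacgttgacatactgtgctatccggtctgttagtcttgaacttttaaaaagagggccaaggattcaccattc
Nlrc4 promoter (chr17:74459059-74459358, minus strand): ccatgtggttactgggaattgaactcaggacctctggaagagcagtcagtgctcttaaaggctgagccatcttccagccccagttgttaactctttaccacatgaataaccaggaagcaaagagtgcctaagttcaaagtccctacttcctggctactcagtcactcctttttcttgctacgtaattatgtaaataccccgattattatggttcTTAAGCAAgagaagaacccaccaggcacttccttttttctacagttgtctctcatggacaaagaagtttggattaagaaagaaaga
Tlr13 promoter (chrX:106143025-106143324, plus strand): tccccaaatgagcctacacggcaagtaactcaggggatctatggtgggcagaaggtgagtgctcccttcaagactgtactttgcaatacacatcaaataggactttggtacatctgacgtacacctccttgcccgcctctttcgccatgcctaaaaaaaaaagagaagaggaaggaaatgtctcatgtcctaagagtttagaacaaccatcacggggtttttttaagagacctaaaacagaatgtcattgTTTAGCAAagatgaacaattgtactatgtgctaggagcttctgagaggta
Pycard promoter (chr7:127993818-127994117, minus strand): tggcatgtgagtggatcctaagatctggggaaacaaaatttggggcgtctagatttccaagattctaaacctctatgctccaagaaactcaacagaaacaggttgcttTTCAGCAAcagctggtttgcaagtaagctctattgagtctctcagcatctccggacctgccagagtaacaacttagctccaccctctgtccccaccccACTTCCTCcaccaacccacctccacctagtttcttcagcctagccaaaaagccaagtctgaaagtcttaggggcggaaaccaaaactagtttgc
Aim2 promoter (chr1:173420354-173420653, plus strand): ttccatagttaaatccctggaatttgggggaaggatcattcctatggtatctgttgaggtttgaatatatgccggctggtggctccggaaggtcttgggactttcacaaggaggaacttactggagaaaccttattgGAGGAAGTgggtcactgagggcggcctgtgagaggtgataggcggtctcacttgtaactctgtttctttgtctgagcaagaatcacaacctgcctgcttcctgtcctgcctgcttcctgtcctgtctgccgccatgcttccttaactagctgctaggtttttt
The half-site was found in 7 of the 35 promoter windows of members, 20.0%, and in 10.2% of 21263 promoter windows of protein-coding genes. The PU.1 core was found in 5 of the 35 windows, 14.3%, and in 3.1% of all windows. The palindrome TTGCGCAA was in 0 of the 35 windows and in 0.2% of all. Promoter entries were matched for 30 of the 38 members. A match describes the letters in the window and does not show which protein was bound. The windows of Nlrp3, Tlr2, Irak4, Ticam1, Ifih1, Clec4d and Clec7a that overlapped a region called in all 6 libraries held none of these letters.

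Regions were dense around these genes. Every one of the 38 genes had at least 1 region in every library, as the map of regions per gene shows. Of all 21887 protein-coding genes, 19480 and 14910 had one in DC, 14919 and 15256 in DE and 17075 and 15502 in WT. A region called in both libraries of a genotype lay near 38 of 38 members in DC (60.7% of all 21887 protein-coding genes), 37 of 38 in DE (58% of all) and 36 of 38 in WT (56.7% of all). Naip6 lacked one in DE and in WT, and Tlr8 lacked one in WT. A region called in all 6 libraries lay near 34 of 38 members, against 50.5% of all protein-coding genes, and the 4 members without one were Tlr8, Tlr9, Naip6 and Msr1. Of the 378 regions near members, 90 were called in all 6 libraries, which is 23.8%, against 23480 or 9.05% of all regions. Among the 161940 regions within 10 kb of any protein-coding gene, 17761 were called in all 6 libraries. At 11 of the 90 member regions another gene was as close or closer than the member. Fewer of the 90 regions lay inside a gene than among all regions near protein-coding genes called in all 6 libraries, 68.9% against 79.9%, and fewer overlapped a promoter window, 17.8% against 24.0%; these shares were not tested. The summits of a region lay close together, with a median distance of 56 bp between the outermost of the 6 libraries.

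**Figure D1:**
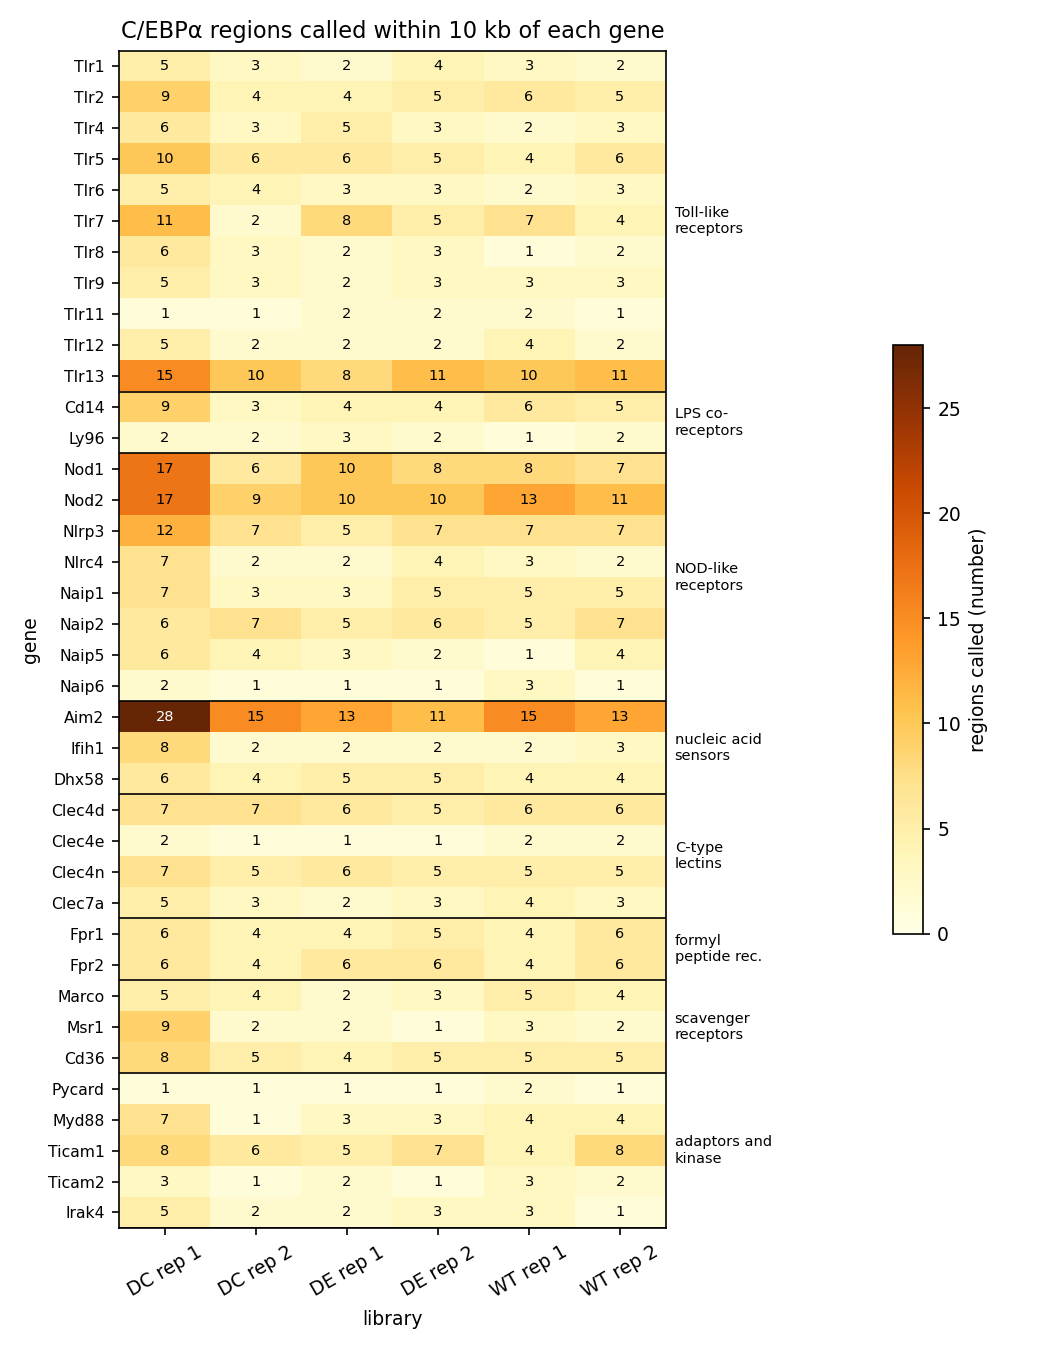
Number of C/EBPα regions called within 10 kb of each of the 38 genes (rows, by role) in each library (columns; rep 1 is batch 1). Each cell prints its number; every cell is at least 1, and the batch 1 DC library has the most, or shares the most, in 33 of 38 rows, up to 28 at Aim2.

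The role groups differed in how many regions they held per length. Counted per 100 kb of gene window, regions called in both libraries numbered 7.21 in DC, 6.92 in DE and 6.40 in WT over all 38 members, and 2.12 in DC, 1.94 in DE and 1.82 in WT over all protein-coding genes. Formyl peptide receptors had the densest windows, with 16.0 in DC, 18.7 in DE and 16.0 in WT. C-type lectins followed, with 10.8 in DC, 10.8 in DE and 11.7 in WT. Both groups consist of short genes, with windows of 37.5 and 111.2 kb in total. Toll-like receptors had 9.92 in DC, 8.58 in DE and 7.78 in WT, and NOD-like receptors 6.73 in DC, 6.52 in DE and 5.89 in WT. Scavenger receptors, with the long genes Msr1 and Cd36, were the sparsest group at 3.03 in DC, 2.36 in DE and 2.69 in WT. Within every role group the 3 genotypes differed by fewer than 10 regions, and these differences were not tested.

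**Figure D2:**
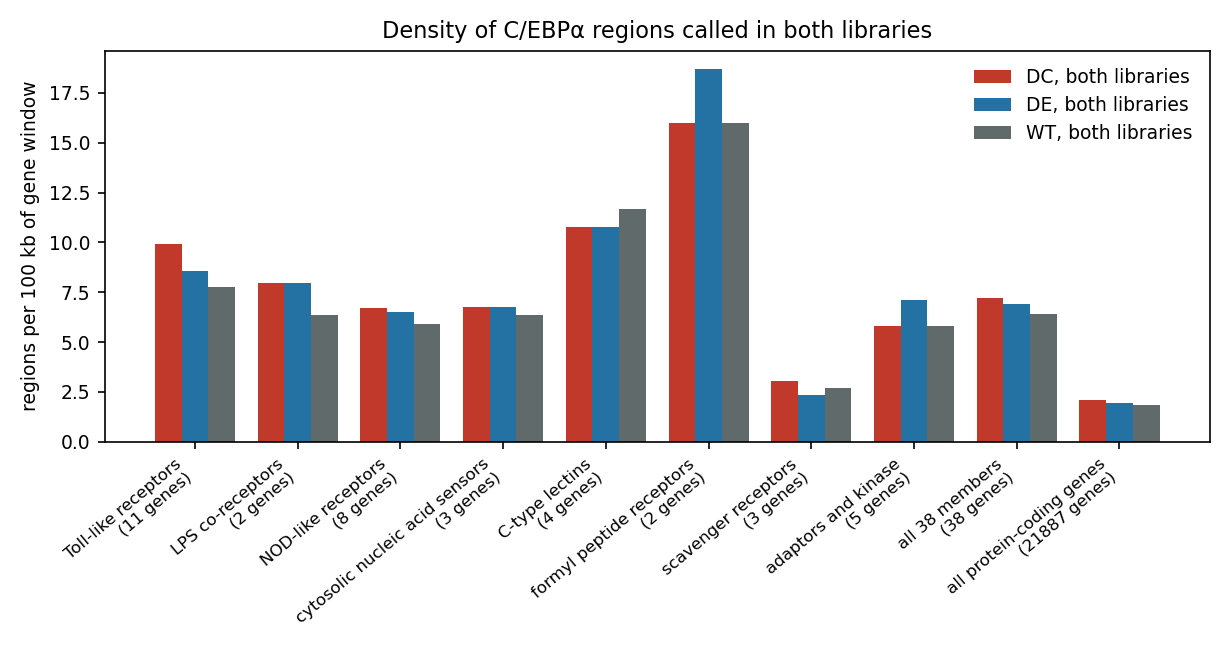
Regions called in both libraries of a genotype, per 100 kb of gene window (y axis), for each role group, all 38 members and all protein-coding genes (x axis, DC, DE and WT bars from left to right). Formyl peptide receptors stand highest at 16.0 to 18.7 and scavenger receptors lowest among the members at 2.36 to 3.03, all above the 1.82 to 2.12 of all protein-coding genes.

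Among Toll-like receptors the strongest region belonged to Tlr2, which senses bacterial lipopeptides. It lay 2.92 kb beyond the gene (chr3:83844741-83845751), on the side of the start, and had a scaled pileup of 142 and 135 in DC, 212 and 142 in DE and 233 and 177 in WT. Both DC libraries lay below both WT libraries there, but the difference did not pass the test (log2 difference -0.55 ± 0.30 SE, limma adjusted p = 0.713; adjusted p = 0.141 with the batch as a term), and it turned to 0.31 when libraries were scaled by their background, which moves the median of all regions by 0.86. Its mean in WT ranked 561 among the 23480 regions called in all 6 libraries. Tlr5, the flagellin receptor, had its strongest region 6.99 kb beyond the gene (chr1:182983032-182983371), with 72.3 and 104 in DC, 76.1 and 91.7 in DE and 110 and 89.3 in WT. Tlr4, the lipopolysaccharide receptor, had 35.2 and 55.2 in DC, 43.5 and 44.2 in DE and 68.6 and 59.9 in WT at a region 5.47 kb beyond the gene (chr4:66852055-66852469). At this Tlr4 region every DC and DE library lay below both WT libraries. The differences did not pass (limma adjusted p = 0.36 for DC against WT and 0.475 for DE against WT, with the batch term). Tlr6, a partner of Tlr2, had 67.3 and 81.3 in DC, 81.1 and 58.9 in DE and 67.6 and 70.4 in WT at a region inside the gene (chr5:64960742-64961705), where the genotypes overlapped.

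Among the endosomal receptors of nucleic acids, Tlr7 and Tlr8, sensors of single-stranded RNA, had 1 and 0 regions called in all 6 libraries, and Tlr9, the sensor of unmethylated CpG DNA, had 0. The strongest Tlr9 region lay over the gene start (chr9:106222259-106222669) and was called in every library but DC of batch 2, with 19.1 in DC, 31.8 and 23.8 in DE and 35.3 and 38.9 in WT. Tlr13, which senses bacterial ribosomal RNA, held 6 regions called in all 6 libraries, the most of any Toll-like receptor, although Atp7a was as close or closer to its strongest one. That Tlr13 region (chrX:106134875-106135286) varied by batch in all 3 genotypes, with 86.5 and 38.3 in DC, 58.6 and 31.7 in DE and 79.7 and 29.4 in WT. Tlr1, Tlr11 and Tlr12 had 1, 1 and 2 regions called in all 6 libraries.

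Both lipopolysaccharide co-receptors were occupied. Cd14, which hands lipopolysaccharide to Tlr4, had its best-ranked region 4.41 kb from the gene (chr18:36719445-36720658), with 115 and 90.5 in DC, 136 and 156 in DE and 141 and 161 in WT. Both DC libraries were the lowest there, yet the differences did not pass (log2 difference for DC against WT -0.56 ± 0.29 SE, limma adjusted p = 0.683, and 0.16 with the batch term; 0.29 with the background scaling). Ly96 (MD-2), the partner of Tlr4 in lipopolysaccharide binding, had 48.8 and 59.8 in DC, 39.3 and 62.3 in DE and 52.5 and 56.7 in WT over one end of its gene (chr1:16688127-16689104).

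Among NOD-like receptors, Nod2, a sensor of muramyl dipeptide, carried 8 regions called in all 6 libraries. The strongest lay inside the gene (chr8:88662342-88662768), with 207 and 150 in DC, 198 and 198 in DE and 209 and 195 in WT. Nlrp3, the sensor of the best-studied inflammasome, had 5 such regions, which all lay within 3 kb of the gene start and form the cluster seen in the plot of scaled pileup along the loci. Its best-ranked region (chr11:59542193-59543016) had 183 and 118 in DC, 193 and 139 in DE and 171 and 147 in WT. Naip2, which detects parts of bacterial secretion systems and passes the signal to Nlrc4, had 215 and 136 in DC, 176 and 180 in DE and 203 and 145 in WT inside the gene (chr13:100152680-100153390). Nlrc4, the inflammasome core that the Naip proteins activate, had 62.4 and 85.9 in DC, 62.7 and 88.3 in DE and 60.5 and 73.5 in WT (chr17:74440436-74440918). In all 4 of these regions the genotypes overlapped. Nod1, Naip1 and Naip5 had 3, 2 and 1 regions called in all 6 libraries, and Naip6 had 0. The Naip genes are closely similar copies; how reads were assigned between them is not given in the sources used here and was not tested, so their values are reported as uncertain.

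**Figure D3:**
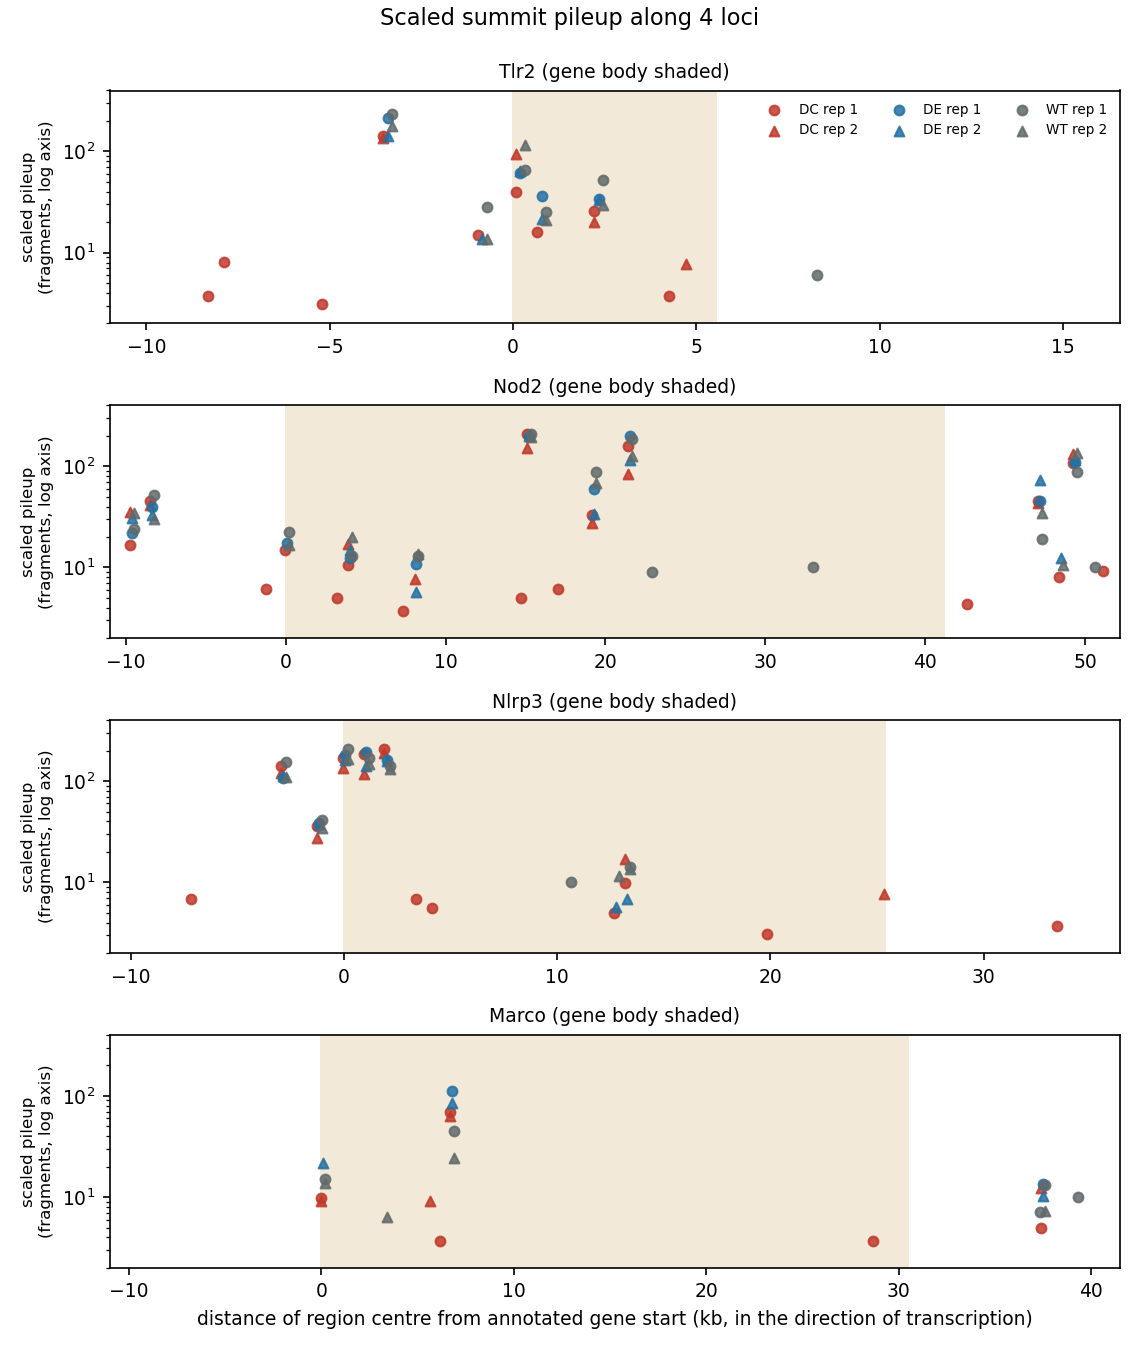
Scaled summit pileup (y axis, fragments, log axis) of each region along Tlr2, Nod2, Nlrp3 and Marco against the distance of the region's centre from the annotated gene start (x axis, kb, in the direction of transcription; genotypes are set slightly apart sideways; circles batch 1, triangles batch 2; a point appears only where the library had a call). Nod2 and Nlrp3 show several regions above 100 in all genotypes, Tlr2 has 1 strong region before its start, and Marco has 1 region where DE lies highest and WT lowest.

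Aim2, a sensor of cytosolic double-stranded DNA that forms an inflammasome, had 9 regions called in all 6 libraries, the most of any member, over an annotated body of 116.5 kb. Its strongest (chr1:173418851-173419334) had 204 and 124 in DC, 222 and 111 in DE and 218 and 123 in WT, and followed the batch, not the genotype. Dhx58 (LGP2), a helicase that modulates RNA sensing, had 54.4 and 38.3 in DC, 43.5 and 27.2 in DE and 79.7 and 58.8 in WT over one end of its gene (chr11:100704189-100704571). There both WT libraries were the highest. The difference between DE and WT was -0.99 ± 0.39 (SE; limma adjusted p = 0.992, and 0.0743 with the batch term). Ifih1 (MDA5), a sensor of long double-stranded RNA, had 17.9 and 36.8 in DC, 24.3 and 28.3 in DE and 31.3 and 16.8 in WT over its start (chr2:62646049-62646412), with the genotypes overlapping.

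The C-type lectins Clec4n (Dectin-2) and Clec4d (MCL), which bind fungal and mycobacterial surface sugars and lipids, shared their strongest region between them (chr6:123252821-123253227). It had 107 and 72.1 in DC, 88.7 and 77.0 in DE and 139 and 112 in WT, so that both WT libraries lay above the other 4. These differences did not pass (limma adjusted p = 0.261 for DC against WT and 0.255 for DE against WT, with the batch term). Clec4e (Mincle), whose promoter sequence is given above, had 67.3 and 58.3 in DC, 63.6 and 58.9 in DE and 66.6 and 66.2 in WT at that promoter (chr6:123289706-123290364), within a narrow range in all libraries. Clec7a (Dectin-1), the receptor of fungal beta-glucans, had 45.1 and 53.7 in DC, 51.0 and 70.2 in DE and 45.4 and 58.8 in WT inside the gene (chr6:129471318-129471737). At the Clec7a start a weaker region (chr6:129472576-129473046) had 10.5 and 12.3 in DC, against 24.2 and 27.3 in WT, which missed the threshold (log2 difference -1.18 ± 0.43 SE, limma adjusted p = 0.492, and 0.0825 with the batch term).

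Of the formyl peptide receptors, which guide phagocytes to bacterial peptides, Fpr2 had a region 6.6 kb beyond the gene (chr17:17900549-17901165) with 218 and 172 in DC, 250 and 210 in DE and 249 and 193 in WT. Fpr1 had 93.3 and 87.4 in DC, 77.0 and 87.2 in DE and 82.7 and 66.2 in WT at a region 4.36 kb from the gene (chr17:17871680-17872115). Both DC libraries lay above both WT libraries at the Fpr1 region, a difference that did not pass the test.

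By rank in WT, the scavenger receptors had the weakest leading region of the role groups. Cd36, a receptor of oxidised lipids and long-chain fatty acids, had 32.7 and 33.7 in DC, 59.4 and 52.1 in DE and 32.3 and 39.9 in WT inside the gene (chr5:17854470-17854958). The DE libraries were the highest there, and DC against DE gave -0.74 ± 0.36 (SE; limma adjusted p = 1.0, and 0.525 with the batch term). Msr1, a receptor of modified lipoproteins, had its best-ranked WT region 1.89 kb beyond the gene (chr8:39644636-39644807), called at 14.2 in DE of batch 1 and at 15.1 and 8.41 in WT, and in neither DC library. Marco, a bacteria-binding receptor of macrophages, is described with the regions that passed a test.

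Among the adaptors, Myd88, which serves most Toll-like receptors, lay beside the region with the highest WT mean of all member regions called in all 6 libraries (chr9:119340954-119341466), 0.94 kb from its gene body on the side of the start, although Acaa1a, which starts there on the other strand, was closer. This region had 208 and 186 in DC, 212 and 211 in DE and 238 and 268 in WT, and its mean in WT ranked 302 of 23480. By the mean in DC the Nlrp3 region chr11:59543342-59543822 was highest (198 against 197 at this region), and by the mean in DE the Fpr2 region was (230 against 211). At the Myd88 region both WT libraries were above the other 4, a difference that did not pass. Ticam2 (TRAM), which links Tlr4 to Ticam1, had 67.3 and 56.7 in DC, 52.7 and 54.4 in DE and 64.6 and 42.0 in WT (chr18:46572828-46573143). Ticam1 itself had 75.4 and 69.0 in DC, 53.5 and 79.3 in DE and 59.5 and 110 in WT over its start (chr17:56276760-56277100). Pycard, the inflammasome adaptor, had 32.7 and 10.7 in DC, 18.4 and 24.9 in DE and 17.2 and 17.9 in WT over its start (chr7:127993685-127993976). DC and DE overlapped with WT at Ticam2 and Ticam1, while at Pycard both DE libraries lay just above both WT libraries. Irak4, the kinase downstream of Myd88, had 1 region called in all 6 libraries, which Pus7l was as close to.

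The genotypes were compared at the 90 regions called in all 6 libraries. In limma without a batch term, 0 of the 90 passed an adjusted p under 0.05 in any of the 3 comparisons, as was true of all 23480 regions (0% called in each direction). At an unadjusted p under 0.05, 6 of the 90 differed for DC against WT, 3 for DE against WT and 1 for DC against DE, beside 1876, 1144 and 557 of all 23480 regions. With the batch as a term, which pairs the libraries by batch, a few regions passed. For DC against WT these were 2 higher of 90 (3.15% of all regions were called higher) and 1 lower (1.17% of all). For DE against WT they were 2 higher (1.12% of all) and 0 lower (0.264% of all). For DC against DE they were 0 higher (0.00852% of all) and 1 lower (0.0213% of all). The median log2 difference over the 90 regions and over all regions was -0.06 and -0.02 for DC against WT, -0.04 and 0.00 for DE against WT, and -0.03 and 0.00 for DC against DE. The comparisons of DC and DE with WT share the WT libraries. In sorted bulk cells, a different mix of progenitors and a different occupancy per cell cannot be told apart.

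The groups of libraries did not overlap at about as many regions as in the series at large. Both DC libraries lay above both WT libraries at 16 of 90 regions (17.2% of all) and below them at 19 (16.8% of all). Both DE libraries lay above both WT libraries at 14 (16.1% of all) and below at 18 (16.1% of all). For DC against DE the numbers were 13 above (15.1% of all) and 16 below (15.2% of all). By role, the median log2 difference for DE against WT was 0.44 over the 6 scavenger receptor regions. These ranged from 0.01 to 1.56, and 1 of them passed with the batch term. The median was -0.17 over the 21 Toll-like receptor regions, 0.05 over the 23 NOD-like receptor regions and -0.12 over the 11 lectin regions. For DC against WT the medians were 0.09 for scavenger receptors, 0.05 for Toll-like receptors, 0.00 for NOD-like receptors and -0.07 for lectins. The 6 scavenger receptor regions belong to Marco and Cd36 alone, and the differences between role groups were not tested.

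**Figure D4:**
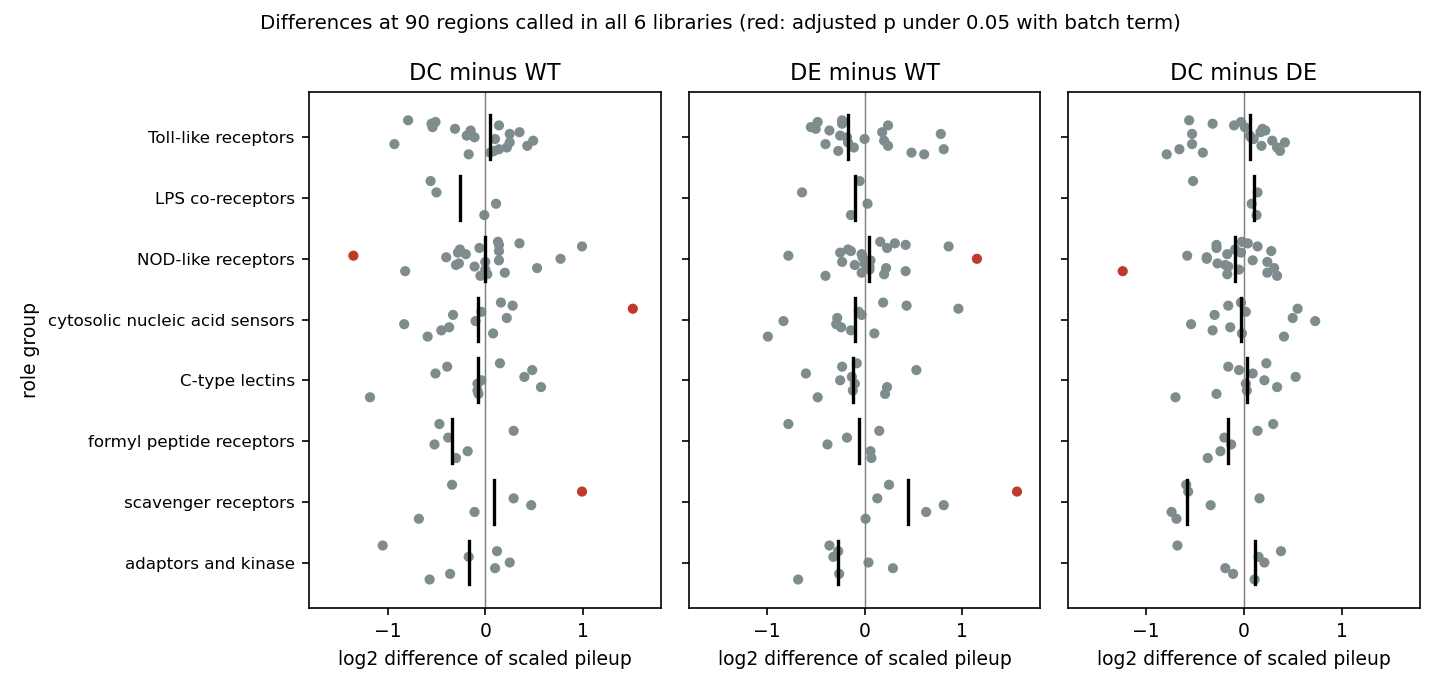
Log2 difference of scaled pileup (x axis) at each of the 90 regions called in all 6 libraries, by role group (rows), for DC minus WT, DE minus WT and DC minus DE. Grey points did not pass with the batch term, red points did (adjusted p under 0.05), and black bars are medians; most points lie within 1 of 0, and the scavenger receptor median for DE minus WT is 0.44.

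At Marco, a region inside the gene (chr1:120498072-120498406) had a scaled pileup of 68.6 and 62.9 in DC, 112 and 84.9 in DE and 45.4 and 24.2 in WT. No 2 genotypes overlapped there, and DE was the highest. With the batch term it was higher in DE than in WT by a log2 difference of 1.56 ± 0.28 (SE; limma adjusted p = 0.000224, against 0.636 without the term), and in DC than in WT by 0.99 ± 0.28 (0.0247, against 0.543). DE was 2.47 times WT in batch 1 and 3.52 times WT in batch 2, with 95% intervals of 1.75 to 3.54 and 2.18 to 5.88 that cover counting error only. The DE call was lost without the batch 2 library of DE (0.0972) or of WT (0.0799), and when libraries were scaled by their background instead (0.265). The DC call was lost without the DC library of batch 1 (0.121) or batch 2 (0.504), without the batch 2 WT library (0.456), with only the 4 DC and WT libraries fitted (0.0532), with the deposited fold (0.19) and with the background scaling (0.0755). DC against DE did not pass (-0.57 ± 0.28, adjusted p = 0.599 with the batch term).

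Nod2 held 2 regions that passed, in opposite directions. Inside the gene (chr8:88666163-88667000) the scaled pileup was 33.4 and 27.6 in DC, 60.2 and 34.0 in DE and 87.8 and 68.3 in WT, with DC the lowest, WT the highest and no overlap between genotypes. DC was lower than WT by a log2 difference of -1.35 ± 0.30 (SE; limma adjusted p = 0.00216 with the batch term, 0.34 without), and DC was 0.38 of WT in batch 1 and 0.404 of WT in batch 2. This call was lost without the DC library of batch 1 (0.18) or batch 2 (0.0517), without the batch 2 WT library (0.0881), and when libraries were scaled by their background instead (-0.49, 0.538). The second Nod2 region lay 5.95 kb beyond the gene (chr8:88694427-88694589), where Cyld, a deubiquitinase gene, is as close or closer. It had 45.1 and 42.9 in DC, 45.2 and 72.5 in DE and 19.2 and 34.7 in WT, and DE was higher than WT by 1.15 ± 0.32 (adjusted p = 0.0463 with the batch term, 0.992 without). That call was lost when any 1 of the 6 libraries was left out (adjusted p of 0.0645 to 0.403), and with the fit of 4 libraries, the deposited fold or the background scaling (0.0727, 0.229 and 0.473). The strongest Nod2 region, described above, did not pass in either fit.

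Aim2 had a weak region inside its annotated body (chr1:173412005-173412284) with 25.9 and 21.5 in DC, 20.9 and 12.5 in DE and 13.1 and 5.25 in WT. Both DC libraries were above both WT libraries, and the DE libraries overlapped with WT. DC was higher than WT by 1.51 ± 0.42 (SE; limma adjusted p = 0.0213 with the batch term, 0.45 without), a call that was lost without the DC library of batch 1 (0.0648) or batch 2 (0.405), without the batch 2 WT library (0.403), and with the deposited fold (0.213). With peaks of −log10 q of 2 or more it was no longer called in all 6 libraries and was not tested. It rests on few fragments: the unscaled pileup in WT was 13 and 5.

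Naip2 had a region inside the gene (chr13:100183142-100183819) with 42.0 and 47.5 in DC, 112 and 99.7 in DE and 88.8 and 70.4 in WT. Both DC libraries lay below the other 4. DC was lower than DE by -1.24 ± 0.26 (SE; limma adjusted p = 0.0465 with the batch term, 1.0 without), and DC against WT missed the threshold (-0.82 ± 0.26, 0.0556 with the term). The DC to DE ratio was 0.375 in batch 1 and 0.477 in batch 2. The call was lost without any 1 of the DC and DE libraries (0.267 to 0.837), with the deposited fold (0.407) and with the background scaling (1.0). It is 1 of 5 regions lower in DC than in DE among all 23480. From which Naip copy its reads came was not tested.

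**Figure D5:**
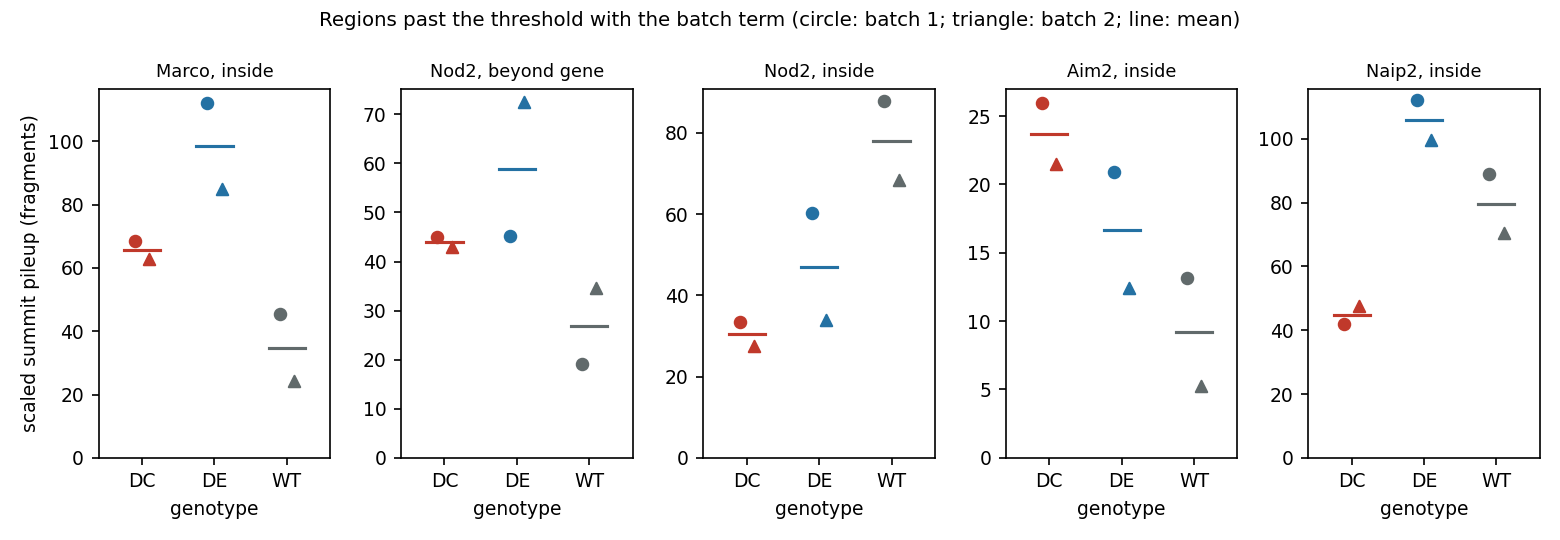
Scaled summit pileup (y axis, fragments, from 0) in DC, DE and WT (x axis) at the 5 regions that passed with the batch term in at least 1 comparison; circles are batch 1, triangles batch 2 and lines means of 2 libraries. DE is highest at Marco, WT is highest at the Nod2 region inside the gene, and DC is lowest at Naip2.

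Regions that 1 genotype had in both libraries and another lacked in both were few, and nearly all of them were weak. Of 126 member regions called in both DC libraries, 9 were called in neither DE library (7.31% of all such regions) and 8 in neither WT library (10.9% of all). Of 121 called in both DE libraries, 5 were called in neither DC library (2.14% of all) and 3 in neither WT library (6.55% of all). Of 112 called in both WT libraries, 5 were called in neither DC library (3.23% of all) and 5 in neither DE library (5.28% of all). These are counts of calls, with no test, and they turn on single libraries: with the batch 1 library alone standing for DC, 128 regions lacked a DE call and 124 a WT call. The other counts of this kind reached 22 for DE without DC and for DE without WT, 42 for WT without DC and 47 for WT without DE when 1 library was left out.

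The region of this kind with the most even support lay inside Nod1, a sensor of bacterial peptidoglycan (chr6:54934445-54934654). Its unscaled pileup was 30 and 19 in DC, 18 and 22 in DE, with no call in WT. Besides this region, 3 DC regions without a WT call had a call in DE of batch 2 alone. They were 2 at Tlr1, a partner of Tlr2, with 11 and 9 (chr5:64933523-64933697) and 12 and 15 (chr5:64935456-64935674) in DC, and 1 inside Tlr6 with 28 and 12 in DC (chr5:64960021-64960193). A set of 4 regions was called in both DC libraries and in no other library. Their unscaled pileups in DC were 11 and 4 at Aim2 (chr1:173447201-173447321), 11 and 6 at Tlr5 (chr1:182951402-182951635), 17 and 7 at Cd36 (chr5:17833879-17834047) and 14 and 5 at Tlr9 (chr9:106215463-106215616), where Twf2 is as close or closer. These 4 are close to the smallest pileup called in batch 2 of DC.

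A further 5 regions were called in DC and in at least 1 WT library but in neither DE library. Clec4d had 12 and 12 in DC and 12 and 17 in WT inside the gene (chr6:123263290-123263531). Inside Nod1 (chr6:54956033-54956290) the pileup was 45 and 7 in DC and 10 in WT of batch 1. The other 3 had a WT call in batch 2 alone: Naip5 with 21 and 13 in DC and 11 in WT (chr13:100246996-100247186), a region between Naip2 and Naip5 with 9 and 8 in DC and 7 in WT (chr13:100210697-100210831), and Ifih1 with 15 and 8 in DC and 14 in WT (chr2:62643441-62643596). Apart from the batch 1 DC value at Nod1, none of these pileups exceeded 21.

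On the DE side, 2 regions had calls in both DE and both WT libraries and in neither DC library. They were at Ticam1, with 45 and 13 in DE and 12 and 14 in WT (chr17:56278947-56279190; Plin3 as close or closer), and inside Tlr7, with 11 and 10 in DE and 16 and 13 in WT (chrX:167318817-167319049). Another 3 without a DC call had a WT call in batch 2 alone: Tlr5 with 20 and 13 in DE and 14 in WT (chr1:182959180-182959435), Dhx58 with 18 and 11 in DE and 8 in WT (chr11:100699725-100699942), and Fpr2 with 16 and 9 in DE and 11 in WT (chr17:17895511-17895677). A pair of DE regions had no WT call and a call in 1 DC library: one near Naip2 with 13 and 12 in DE and 9 in DC of batch 2 (chr13:100141983-100142243), and one near Tlr7 with 10 and 13 in DE and 14 in DC of batch 1 (chrX:167338718-167338891; Prps2 as close or closer).

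Only 1 member region was called in both WT libraries and in no DC or DE library. It lay inside Myd88 (chr9:119339586-119339705) with a pileup of 12 and 13. Besides it and the Ticam1 and Tlr7 regions above, the WT regions without a DC call were the Msr1 region named above and one near Tlr1 with 7 and 8 in WT and 11 in DE of batch 2 (chr5:64934353-64934531). Besides Myd88 and the Clec4d region above, those without a DE call were at Clec7a with 10 in DC of batch 2 and 8 and 13 in WT (chr6:129474593-129474817), at Aim2 with 12 in DC of batch 1 and 13 and 21 in WT (chr1:173365963-173366278; Cadm3 as close or closer), and near Tlr13 with 7 in DC of batch 1 and 10 and 10 in WT (chrX:106135956-106136241).

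Signalling genes downstream of these receptors were examined as a second list of 45 genes, from the Irak kinases to the NF-κB subunits, interferon regulatory factors and inflammasome effectors. A region called in both libraries lay near 42 of 45 genes in DC (60.7% of all protein-coding genes), 41 in DE (58% of all) and 42 in WT (56.7% of all), and 120 regions near them were called in all 6 libraries. Without the batch term 0 of the 120 passed in limma. An unadjusted p under 0.05 was reached by 13 for DC against WT, 10 for DE against WT and 2 for DC against DE. Beside these stood 1876, 1144 and 557 of all 23480 regions, in the same order. With the term, 3 were higher (3.15% of all regions) and 1 lower (1.17% of all) in DC than in WT, 1 was higher (1.12% of all) and 1 lower (0.264% of all) in DE than in WT, and 0 passed for DC against DE. The 3 higher in DC became 0 without either DC library, without the batch 2 WT library and with the deposited fold, and 1 without the batch 1 WT library. In DE both calls were lost without the batch 2 library of DE or of WT, with the deposited fold and with the background scaling. The lower one in DC lay inside Irak2 (chr6:113649388-113649885), a kinase of the Myd88 complex, with 31.5 and 15.3 in DC, 40.1 and 37.4 in DE and 76.7 and 70.4 in WT (log2 difference -1.74 ± 0.33 SE, adjusted p = 0.000153), a call that was lost without the batch 2 DC library and with the background scaling. A region 8.97 kb from Tollip, an inhibitor of Toll-like receptor signalling, was higher in both variants (chr7:141911431-141911837), with 88.3 and 96.6 in DC, 79.5 and 87.2 in DE and 46.4 and 36.8 in WT. Its log2 difference was 1.16 ± 0.27 for DC against WT (adjusted p = 0.00328) and 1.01 ± 0.27 for DE against WT (0.03), where the call was lost when any library but WT of batch 1 was left out.

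Irak3 (IRAK-M), a negative regulator of the pathway, held 2 such regions. One was higher in DC than in WT (chr10:120193274-120193783), with 71.7 and 76.7 in DC, 50.2 and 39.6 in DE and 34.3 and 35.7 in WT (1.08 ± 0.30, adjusted p = 0.019 with the batch term). The other was lower in DE than in WT (chr10:120201093-120203151), with 54.4 and 115 in DC, 45.2 and 66.8 in DE and 74.7 and 175 in WT (-1.06 ± 0.26, 0.0133). At this second region all 3 genotypes were higher in batch 2 than in batch 1. Neither Irak3 region passed without the batch term, and both calls were lost with the deposited fold and with the background scaling. Across the alternatives, with single libraries left out among them, the log2 difference ran from 1.0 to 1.94 at the first region. At the second it ran from -1.66 to -0.44. Ikbkb, the gene of a kinase that activates NF-κB, had a region with 32.7 and 26.1 in DC, 16.7 and 23.8 in DE and 9.1 and 14.7 in WT (chr8:22705909-22706307), higher in DC than in WT by 1.34 ± 0.41 (0.0373), a call lost when any 1 library was left out.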

How the data were processed

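C/EBPα CUT&RUN libraries of DC, DE and WT progenitors (2 each) were analysed from their peak lists. Per the labels' protocols, libraries were made with 14 PCR cycles from fragments of 150 to 350 bp. Genome build mm10 and the tools MACS2 2.2.9.1, Bowtie2, HOMER, Trimmomatic and SAMtools are named per the submitters' processing notes; the control used for peak calls is not given in the sources used here. Peaks were called per library, 1 deposited list each. For each peak the deposited lists give a fold enrichment (a ratio over local background) and its significance as −log10 of a p-value and of a q-value, as the authors' caller wrote them.

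The whole-number pileup and background were solved from the deposited fold and p-value, within 5% of a whole step for 99.99% of peaks in each library. The read depth is unknown, and intervals cover counting error only. Pileups were divided by a factor of 0.652 to 1.62, set by the median over 23480 regions called in all 6 libraries. Regions were compared on log2 pileup in R 4.3.3 with limma 3.58.1 (variance trend on; p-values adjusted by Benjamini-Hochberg over all 23480 regions, two-sided), without and with batch as a term. Batch numbers are the replicate numbers in the library names and were used to pair the libraries. Same-batch deviations from the genotype means correlated across regions. The r was 0.55 for DC and WT, 0.41 for DE and WT and 0.38 for DC and DE. The recovery and the fit were tested on simulated data. Python 3.11.15 with numpy 2.4.6, pandas 2.3.3 and scipy 1.17.1 was used. Gene positions and promoter sequences were from RefSeq (GRCm38.p6), with 21887 protein-coding genes.

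The genes and lists were chosen with earlier results of these data known. Values are given in every library for the best WT region of up to 4 members per role group (by the worse of 2 ranks on −log10 q), all regions past the threshold in either fit, and all regions that 1 genotype had in both libraries and another lacked in both; of the second list, up to 6. Values named beyond this rule (Tlr9, Tlr13 and the Clec7a start) were chosen after they were seen. Alternatives varied the scaling, measure, window, peak threshold, overlap and libraries. The deposited merged table holds no measurement and was not used.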

Additional observations from a re-analysis of the deposited data

Results flagged for a closer look

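The region inside Naip2 (chr13:100183142-100183819) differed between the variants themselves: the log2 difference of scaled pileup for DC against DE was -1.24 ± 0.26 (SE; limma adjusted p = 0.0465 with the batch term, 1.0 without it). The scaled pileup was 42.0 and 47.5 in DC and 112 and 99.7 in DE. Leaving out either WT library kept the call, leaving out any DC or DE library ended it, and with the background scaling or the deposited fold it did not pass. Mapping between the Naip copies was not tested.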

How the results depend on the processing

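The count of member regions past the threshold depends on the replicate block (batch as a term). Without it the count was 0 in every comparison and under every alternative run, leaving out a library included. With the replicate block it was 3 for DC against WT, 2 for DE against WT and 1 for DC against DE. Peaks with a −log10 q of 2 or more gave 2, 2 and 1 in the same order, and a fit of only the 4 libraries compared gave 2, 1 and 1. The deposited fold gave 1 for DC against WT, 1 for DE against WT and 0 for DC against DE, and scaling by background gave 1, 0 and 0. Leaving out 1 library at a time in the fit with the block gave 0 to 3 for DC against WT, 0 to 1 for DE against WT and 0 to 1 for DC against DE. Scaling by background moved the median of all regions by 0.86 for DC against WT, 0.55 for DE against WT and 0.31 for DC against DE. The 5 regions past the threshold kept their direction in the comparison where they passed. Of their uncalled comparisons, the Naip2 region for DC against WT reached 0.03 and the Nod2 region beyond the gene for DC against DE reached 0.06. Of the uncalled differences at Tlr2, Cd14, Dhx58, Clec7a and Cd36, those at Tlr2 and Cd14 turned to 0.31 and 0.29 with the background scaling alone. The calls at Irak2, Tollip, Irak3 and Ikbkb kept their direction under the same alternatives. Other regions described by their values are not covered by these counts. The cause of these changes was not tested.

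Members with a region called in both libraries numbered 38 in DC, 37 to 38 in DE and 36 to 38 in WT when a library was left out. Regions called in one genotype and not another depended on the window: for 1 kb and 50 kb they were 5 and 14 for DC without WT, 3 and 11 for DE without DC, 1 and 8 for DE without WT, 3 and 9 for WT without DC, and 3 for WT without DE at 1 kb. A −log10 q of 2 or more gave 5 for DE without WT. Leaving out a library gave 9 to 128 for DC without DE, 8 to 124 for DC without WT, 5 to 22 for DE without DC, 3 to 22 for DE without WT, 5 to 42 for WT without DC and 5 to 47 for WT without DE. The highest counts with DC came without the batch 2 DC library, which leaves the batch 1 library alone to define a call. Unknown read depth limits all of these counts.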
